A study of Danio rerio with 8 samples.

Results

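The genes described here encode the small nuclear RNA activating protein complex (SNAPc), the little elongation complex and the RNA polymerase III initiation factor Brf2, in kdrl-positive cells of zebrafish embryos. Of 10 gene symbols asked for, 8 matched a row of the count table by symbol with case ignored. They were snapc1b, snapc2, snapc3, snapc4, snapc5, ice1, ice2 and brf2, among 31901 genes in the table, and all 8 passed the filter on low counts. No row matched zc3h8, which was not analysed here, and none carried the symbol snapc1a. A row named SNAPC1 (ENSDARG00000029569) may be that gene, since a RefSeq table lists snapc1 as another name of snapc1a. It held 0, 11, 0 and 44 counts in mutant replicates 1 to 4 and 0, 0, 11 and 9 in sibling replicates 1 to 4, which is too few to compare, and a count of 0 still allows up to 3 counts. The genes were chosen because snapc4, ice1 and brf2 stood far higher in mutant than in sibling cells, so their mutant and sibling values are given as a description, with no test.

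Total RNA of kdrl-positive cells was sequenced after removal of ribosomal RNA, at 28 hours post fertilization, from 4 libraries labelled sf3b1 mutant and 4 labelled sibling. kdrl encodes a VEGF receptor of endothelium, and sf3b1 a core subunit of the U2 particle of the spliceosome. The sf3b1 allele, the siblings' own genotype, the embryos pooled for each library and the clutch behind each replicate are not stated in the labels. Any p-value therefore measures only the spread between these libraries, which may be technical.

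Small nuclear RNAs (snRNAs) are the RNA parts of the spliceosome. In vertebrates most are made by RNA polymerase II, while U6 snRNA, 7SK RNA and the RNA parts of RNase P and RNase MRP are made by RNA polymerase III from promoters that lie upstream of the gene. Both kinds of promoter carry a proximal sequence element to which SNAPc binds, and in human cells BRF2 takes the place of BRF1 in the initiation factor TFIIIB at the RNA polymerase III kind. The little elongation complex, known from human and fly cells, joins ELL with ICE1, ICE2 and ZC3H8 and supports transcription of snRNA genes.

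Library totals ran from 10035886 to 13277963 counts. The unit of level is CPM, a count divided by the normalised library size and scaled to a common total. A log2 fold change compares mutant with sibling libraries and is followed by its SE. The mutated gene, SF3B1 (ENSDARG00000056138), stood at 151.3, 149.6, 187.9 and 162.3 CPM in mutants and 313.2, 211.5, 310.6 and 353.9 CPM in siblings. It fell (log2 fold change -0.87 ± 0.166), with an adjusted p of 0.00168 in the quasi-likelihood test of edgeR after Benjamini-Hochberg correction over all tested genes. The groups did not overlap. Of 12 tested endothelial marker genes, 2 rose, and their summed level was 2809 to 5416 CPM in mutant and 2620 to 4454 CPM in sibling libraries, with kdrl and cdh5 present in all. Markers of some other cells moved with the groups. The summed level of 9 erythroid rows was 3863 to 5094 CPM in mutants and 7943 to 14340 CPM in siblings, with 7 of 8 tested rows falling. For 15 leukocyte rows it was 173.6 to 362.9 and 814.4 to 1088 CPM, with 9 of 10 tested rows falling and 1 row at 0 in every library. For 12 neural rows it was 409.3 to 444.2 and 991.7 to 1515 CPM, with 7 of 12 falling. In siblings the erythroid sum lay above the endothelial sum, while in mutants it lay above it in some libraries and below it in others. Muscle markers (10 rows, 246.3 to 648.6 and 262.8 to 412.5 CPM, 1 of 10 tested rising) and neural crest and pigment markers (9 rows, 36.41 to 98.79 and 75.19 to 94.12 CPM, 1 of 8 tested falling) overlapped between the groups. The part of these other cells in the values below was not tested, and in such bulk samples fewer cells of a type and less RNA per cell cannot be told apart. In the principal components of all tested genes, mutant replicate 4 and sibling replicate 2 were set apart from the rest of their group.

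The DNA-binding subunit of SNAPc had the most even values of the complex. snapc4 (ENSDARG00000067673), whose human counterpart contacts the promoter through Myb repeats, stood at 366.2, 332, 308.7 and 311.8 CPM in mutant replicates 1 to 4. In sibling replicates 1 to 4 it stood at 31.05, 31.87, 30.5 and 32.53 CPM. The lowest mutant library was 9.49 times the highest sibling library, and the coefficient of variation was 8.01% among mutants and 2.84% among siblings. In siblings snapc4 rested on 310 to 405 counts, against 31 to 174 for the other subunits. Counting error weighs more on low counts, so part of this evenness may come from depth. The log2 fold change was 3.39 ± 0.143, and 0.541% of the 18289 genes tested had a larger rise.

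The other SNAPc subunits did not share the size of that difference. snapc1b (ENSDARG00000003827), which encodes a form of the subunit that in human cells joins SNAPC4 and SNAPC3 in the DNA-binding core, stood at 19.07, 19.18, 14.67 and 21.12 CPM in mutants and 6.009, 6.584, 7.667 and 10.12 CPM in siblings. All 4 mutant libraries lay above all 4 sibling libraries, and the log2 fold change was 1.28 ± 0.295. snapc3 (ENSDARG00000101474, listed as SNAPC3), the zinc-binding subunit of that core, stood at 16.88, 17.43, 24.35 and 19.73 CPM in mutants and 10.22, 12.21, 6.77 and 8.596 CPM in siblings. Its groups did not overlap either, and the log2 fold change was 1.05 ± 0.288.

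snapc2 (ENSDARG00000036473), which encodes a subunit outside the minimal core in human cells, stood at 8.128, 12.07, 4.794 and 16.27 CPM in mutants and 3.105, 5.82, 6.933 and 8.274 CPM in siblings. The groups overlapped, since mutant replicate 3 lay below 3 of the siblings, and the log2 fold change was 0.77 ± 0.447. snapc5 (ENSDARG00000062476, listed as SNAPC5), which encodes a small subunit, stood at 7.425, 8.473, 5.274 and 9.781 CPM in mutants and 8.212, 16.6, 6.933 and 7.953 CPM in siblings. Sibling replicate 2 was high and the other libraries of both groups lay within the same range. The log2 fold change of snapc5 was -0.36 ± 0.387, and -0.01 without sibling replicate 2. Within the complex the log2 fold changes thus ran from -0.36 for snapc5 to 3.39 for snapc4.

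**Figure D1:**
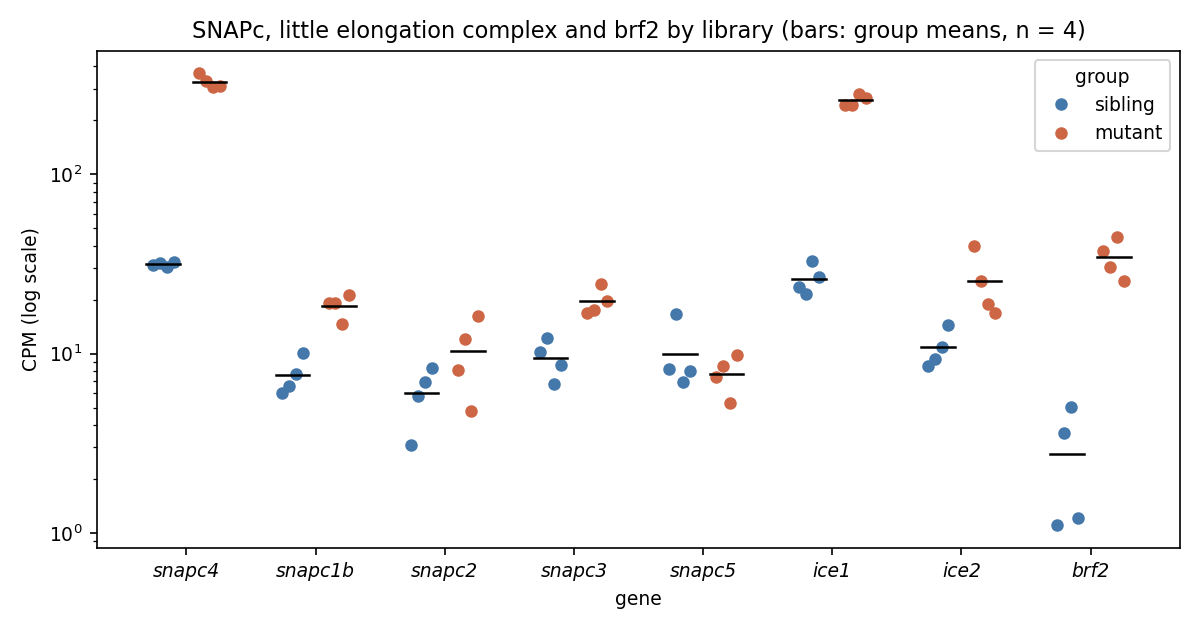
Level of each gene in CPM (log axis) in 4 sibling and 4 mutant libraries, with points for libraries and bars for group means. The groups lie far apart for snapc4, ice1 and brf2, lie apart more narrowly for snapc1b, snapc3 and ice2, and overlap for snapc2 and snapc5.

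Of the little elongation complex, ice1 (ENSDARG00000058461), whose product holds the complex together in human cells, stood at 245, 245, 280.6 and 266.7 CPM in mutants. In siblings it stood at 23.43, 21.47, 32.79 and 26.75 CPM. The lowest mutant library was 7.47 times the highest sibling library, and the log2 fold change was 3.31 ± 0.17. ice2 (ENSDARG00000086670, listed as ICE2), another subunit, stood at 39.94, 25.26, 18.98 and 16.93 CPM in mutants and 8.513, 9.351, 10.93 and 14.46 CPM in siblings. Its groups did not overlap, but the lowest mutant library was only 1.17 times the highest sibling library, and mutant replicate 1 stood well above the other mutants. The log2 fold change of ice2 was 1.22 ± 0.316, and 0.91 without mutant replicate 1.

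snapc4 and ice1 differed between the groups by nearly the same factor, 10.47 for snapc4 and 9.933 for ice1 as ratios of mean CPM. The ratio of snapc4 to ice1 counts, which is not corrected for transcript length and is read only across libraries, was 1.49, 1.36, 1.1 and 1.17 in mutants and 1.32, 1.48, 0.93 and 1.22 in siblings, so the groups overlapped in it. The ratio of ice1 to ice2 did not overlap, at 6.14, 9.7, 14.8 and 15.8 in mutants and 2.75, 2.3, 3 and 1.85 in siblings. The ratio of snapc4 to snapc5 was 31.9 to 58.5 in mutants and 1.92 to 4.4 in siblings. Because snapc4 and ice1 were chosen for their rise, their similar factors and the separation of these ratios follow in part from that choice. They are given as a description only.

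brf2 (ENSDARG00000002060) had the largest fold change of the 8 genes and few counts in siblings. It stood at 37.44, 30.3, 44.87 and 25.31 CPM in mutants and at 1.102, 3.626, 5.057 and 1.205 CPM in siblings. The lowest mutant library was 5.01 times the highest sibling library. The sibling values rest on 11, 38, 62 and 15 counts, with exact Poisson 95% intervals of 5.49 to 19.7 counts for sibling replicate 1 and 47.5 to 79.5 for sibling replicate 3, which cover counting error only. The coefficient of variation of brf2 was 70.3% among siblings and 24.7% among mutants, and the log2 fold change was 3.64 ± 0.449.

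In order of log2 fold change the 8 genes were brf2 (3.64), snapc4 (3.39), ice1 (3.31), snapc1b (1.28), ice2 (1.22), snapc3 (1.05), snapc2 (0.77) and snapc5 (-0.36). The differences between brf2, snapc4 and ice1, and between snapc1b, ice2, snapc3 and snapc2 as neighbours in this order, were within the combined SEs of each pair. brf2, snapc4 and ice1 lead the order because the choice of genes rested on them. The groups did not overlap, with mutants higher, in 6 of the 8 genes, where 12.6% of all genes tested did so. Lower values without overlap were seen in 14.1% of all genes tested and in none of the 8. In the test over all genes, 21.3% of genes passed an adjusted p of 0.05. The median log2 fold change was 1.25 over the 8 genes and 0 over all genes tested. Because the genes were chosen on this contrast, these counts describe the choice and are not evidence about it. Together the 8 genes held 0.0685% to 0.073% of a mutant library's counts and 0.00888% to 0.0112% of a sibling library's counts, with snapc4 and ice1 giving most of it in mutants.

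**Figure D2:**
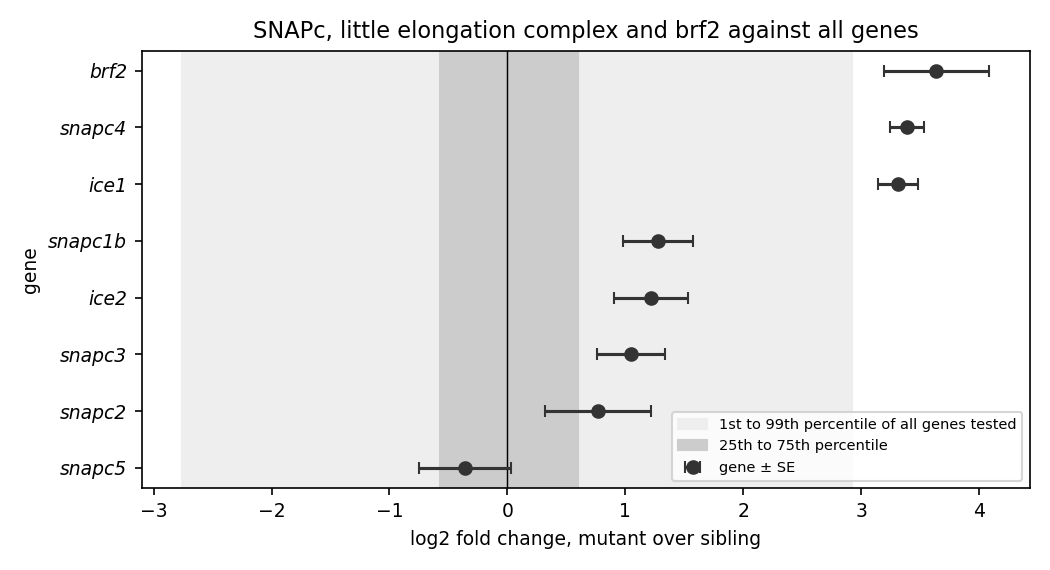
Log2 fold change of mutant over sibling ± SE for the 8 genes, over grey bands for the 25th to 75th percentile (-0.57 to 0.6) and the 1st to 99th percentile (-2.76 to 2.92) of all 18289 genes tested. brf2, snapc4 and ice1 lie beyond the 99th percentile and snapc5 lies within the inner band.

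The genes with the most similar profile were sought for the 3 most changed genes, by the root mean square distance between log2 CPM profiles over the 8 libraries, each centred on its own mean. Nearest to snapc4 were FRG1 (distance 0.13), SSB (0.192), PRPF31 (0.193), SAP30BP (0.24) and ISY1 (0.27), which stood at 148.6 ± 17.1, 636.3 ± 88.3, 339 ± 46, 102.8 ± 21.5 and 213 ± 9.64 CPM in mutants (SD, n = 4). In siblings FRG1 stood at 15.41 ± 1.08 CPM and ISY1 at 27.93 ± 4.86 CPM. PRPF31 encodes a protein of the U4/U6.U5 particle of the spliceosome, and SSB the La protein, which binds new RNA polymerase III transcripts. Nearest to ice1 were FRG1 (0.256), si:ch211-117n7.7 (0.265), HCCS (0.275), SAP30BP (0.278) and SSB (0.307), so FRG1, SSB and SAP30BP were near to both. Of these, si:ch211-117n7.7 stood at only 2.047 CPM in mutants and 0.04078 CPM in siblings. Its log2 fold change was 5.26 ± 1.51, against 3.31 for ice1. The prior count of 2 in these profiles shrinks differences at such low levels. The genes nearest to brf2 were farther away, at 0.488 for GTPBP1, 0.54 for FGF16, 0.56 for si:ch211-209j12.1, 0.561 for si:ch211-117n7.7 and 0.567 for rd3. Apart from GTPBP1 these stood at under 4 CPM in mutants. In that order their log2 fold changes were 3.15, 3.39, 6.17, 5.26 and 6.13, against 3.64 for brf2. The distance is a description over 8 libraries of 2 groups, and a large difference between the groups dominates it.

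Genes that work with these complexes were listed in 4 groups and read from the test over all genes. The lists were chosen with earlier results of these data known, so the shares below are a description and not independent support. Of 55 tested partner rows, 20 rose (36.4%) and 8 fell (14.5%), with 27 not passing, where 9.92% of all genes tested rose and 11.4% fell. The median log2 fold change of the partners was 0.48, against 0 over all genes. Capital symbols follow the human gene name, and several zebrafish rows can carry the same symbol, so each value is that of the identifier given.

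The largest share that rose was among proteins of the 7SK particle and of U6 snRNA maturation, where 10 of 16 rows rose, 2 fell and 4 did not pass (median log2 fold change 1.25). SSB (ENSDARG00000029252) rose from 74.31 ± 7.18 CPM in siblings to 636.3 ± 88.3 CPM in mutants (SD, n = 4; log2 fold change 3.1 ± 0.153, adjusted p = 3.36e-08, edgeR). METTL16, which methylates U6 snRNA, rose by 2.69 ± 0.233 on the log2 scale, from 10.75 ± 3.09 to 69.54 ± 9.39 CPM. LSM7, of the ring of LSM proteins that binds the end of U6 snRNA, rose by 2.26 ± 0.218, and SART3, a U6 recycling factor, by 1.27 ± 0.153. The following genes of this list were picked after their values were seen. LSM8 (2.81 ± 0.367), LSM6 (1.93 ± 0.343) and LSM4 (1.23 ± 0.258) rose as well, while LSM3 (0.01 ± 0.547) and LSM5 (0.22 ± 0.491) did not pass at about 5 CPM. LSM2 (ENSDARG00000103066, 2.19 ± 1.22) did not pass either. It stood higher in mutants without overlap, at only 2.007 CPM in mutants and 0.4295 CPM in siblings. LARP7, which stabilises 7SK RNA, rose (1.18 ± 0.225), from 12.69 ± 1.53 to 28.86 ± 0.559 CPM. MEPCE, whose product caps 7SK RNA, fell at both of its identifiers (-1.1 ± 0.225 with adjusted p = 0.00274, and -0.62 ± 0.204 with adjusted p = 0.0437, edgeR).

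Of 13 tested partners of the little elongation complex and of the super elongation complex, which shares ELL proteins with it, 4 rose, 2 fell and 7 did not pass, and their median log2 fold change was -0.18. coil, which encodes the coilin scaffold of Cajal bodies, rose from 10.98 ± 1.68 to 73.42 ± 9.06 CPM (SD, n = 4; log2 fold change 2.74 ± 0.203, adjusted p = 8.87e-07, edgeR). A row of CCNT2 (ENSDARG00000036685), a cyclin partner of CDK9, rose by 1.16 ± 0.17, and a row of MLLT1 (ENSDARG00000031709), of the super elongation complex, by 1.73 ± 0.331. The other row of each symbol, added here after its values were seen, did otherwise. The second CCNT2 row (ENSDARG00000036510) fell from 139.1 ± 13.9 to 92.83 ± 9.38 CPM (SD, n = 4; -0.58 ± 0.147, adjusted p = 0.0105, edgeR), and the second MLLT1 row did not pass (-0.43 ± 0.249, adjusted p = 0.258). AFF4, the scaffold of the super elongation complex, fell by 0.83 on the log2 scale (SE 0.171), from 322.3 ± 61.5 to 181.3 ± 32.4 CPM. ELL, the elongation factor that ICE1 holds, and ELL2 of the same family were picked after their values were seen. ELL was at 53.93 ± 12.1 CPM among mutants and 55.3 ± 6.51 CPM among siblings (log2 fold change -0.04 ± 0.198, adjusted p = 0.929, edgeR). ELL2 was at 92.53 ± 25.2 and 129.6 ± 39.6 CPM (-0.49 ± 0.232, adjusted p = 0.163).

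Of 12 tested genes of TFIIIB, TFIIIC and RNA polymerase III initiation, 3 rose, 1 fell and 8 did not pass (median log2 fold change 0.55). The TFIIIB subunits that work with Brf2 both rose. TBP, the TATA-binding protein, stood at 14.9 ± 1.23 CPM in siblings and 32.84 ± 7.12 CPM in mutants (SD, n = 4; log2 fold change 1.14 ± 0.236, adjusted p = 0.00305, edgeR). bdp1 stood at 10.93 ± 3.3 and 27.09 ± 4.64 CPM (1.31 ± 0.281, adjusted p = 0.00389). A row of BRF1 (ENSDARG00000005002), which encodes the counterpart of Brf2 at tRNA and 5S promoters, fell from 38.66 ± 2.98 to 21.49 ± 2.61 CPM (-0.85 ± 0.2, adjusted p = 0.00726), and brf1a, picked after its values were seen, stood at 25.19 ± 6.22 CPM in siblings and 17.04 ± 7.8 CPM in mutants (-0.56 ± 0.351, adjusted p = 0.299). GTF3A (ENSDARG00000030267), encoding the 5S factor TFIIIA, rose by 0.88 ± 0.282 on the log2 scale, and it no longer passed when any 1 of 5 libraries was omitted, namely mutant replicates 1 and 2 and sibling replicates 1, 3 and 4 (0.71 to 1.13 over all 8 omissions).

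Of 14 tested activators and general factors of snRNA promoters, 3 rose, 3 fell and 8 did not pass (median log2 fold change 0.1). The TFIIE genes GTF2E1 (1.97 ± 0.164) and GTF2E2 (1.01 ± 0.233) and the TFIID gene TAF5 (0.8 ± 0.173) rose. POU2F1 (ENSDARG00000007996), encoding the Oct-1 protein that binds the distal element of snRNA promoters with SNAPc, fell from 77.53 ± 9.74 to 52.37 ± 4.02 CPM (SD, n = 4; log2 fold change -0.57 ± 0.163, adjusted p = 0.0224, edgeR). Its call was lost without mutant replicate 2, without sibling replicate 4, and without mutant replicate 4 and sibling replicate 2 together. The other falling rows were picked after their values were seen. They were GTF2A1 (-0.84 ± 0.274, adjusted p = 0.0399, edgeR) and a row of ZNF143 (ENSDARG00000041581, -0.73 ± 0.222, adjusted p = 0.0299). The second ZNF143 row (ENSDARG00000012887) did not pass (-0.14 ± 0.2, adjusted p = 0.688).

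**Figure D3:**
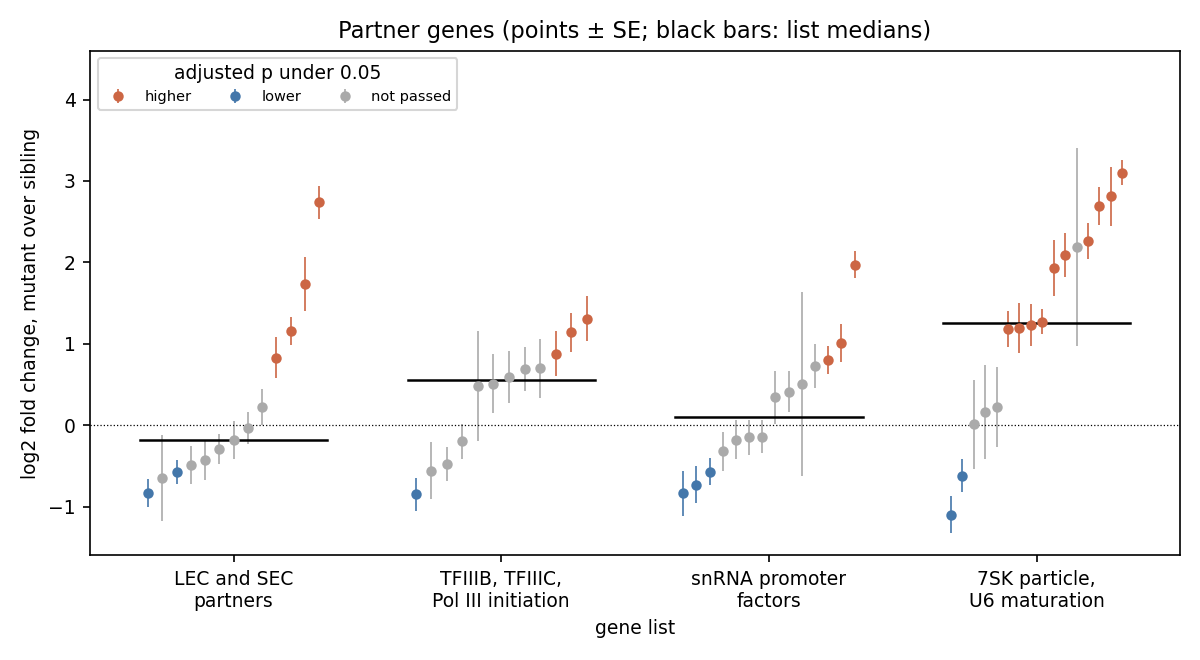
Log2 fold change of mutant over sibling ± SE for each tested partner row in the 4 lists, coloured by whether it passed an adjusted p of 0.05, with black bars at the list medians (-0.18, 0.55, 0.1 and 1.25 from left to right). LEC and SEC stand for the little and super elongation complexes.

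The RNAs made from promoters that SNAPc serves were read from rows named as U1, U2, U4, U5, U6, U7, U12, the minor U4atac and U6atac, 7SK, RNase P or RNase MRP RNA. Of 545 such rows, 98 held any count and 22 passed the filter on low counts. The 303 rows named U6 held 172 counts over all 8 libraries and none passed the filter, and the 182 rows named U1 held 2138 counts, so U6 could not be compared. Many of these genes exist in near-identical copies among which reads can be split or dropped, and short RNAs can be lost when libraries are made. Single rows are therefore uncertain, and a low row can pass the filter on mutant counts alone.

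These rows together held 0.142%, 0.0933%, 0.0873% and 0.113% of counts in mutants and 0.161%, 0.131%, 0.114% and 0.205% in siblings. The groups overlapped, with means of 0.109% ± 0.0245 and 0.153% ± 0.0397 (SD, n = 4), and the difference of -0.0439 percentage points did not pass (p = 0.114, exact two-sided permutation test, whose smallest possible p is 0.0286). That test took no account of replicate number. At each number the mutant library held the lower share, though the labels do not say that the numbers mark pairs. Most of these counts, 82884 of 122561, came from 7SK RNA, and 32895 came from RNase P or RNase MRP RNA. The summed share therefore says little about the snRNA rows, which are read 1 by 1 below. rn7sk (ENSDARG00000081270) stood at 949.5, 600.1, 524.7 and 721.6 CPM in mutants and 1291, 944.8, 858.2 and 1258 CPM in siblings. Mutant replicate 1 overlapped the siblings, though at each replicate number the mutant value was the lower of the pair. rn7sk fell (log2 fold change -0.64 ± 0.189, adjusted p = 0.0254, edgeR). This call was lost without mutant replicate 2, mutant replicate 3, sibling replicate 1 or sibling replicate 4, with -0.82 to -0.52 over all 8 omissions. A fit in edgeR with replicate number as a block kept the call, at an adjusted p of 0.00183 and -0.65 on the log2 scale. That block treats equal numbers as pairs, which the labels do not state.

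The RNase P row rpph1 (ENSDARG00000089617) was at 96.15 ± 19.6 CPM among mutants and 166.1 ± 96.2 CPM among siblings (SD, n = 4; log2 fold change -0.79 ± 0.309, adjusted p = 0.0908, edgeR). The RNase MRP row rmrp stood at 96.27 ± 45.5 and 151.2 ± 89.7 CPM (-0.65 ± 0.45, adjusted p = 0.376). Sibling replicate 4 was the highest library for both, at 307.3 CPM of rpph1 and 278.3 CPM of rmrp, and without it the log2 fold changes were -0.31 for rpph1 and -0.18 for rmrp. A further row named RNaseP_nuc (ENSDARG00000085497) stood at 107 ± 17.4 and 81.8 ± 23.9 CPM (0.39 ± 0.207, adjusted p = 0.218). The U2 rows ENSDARG00000082321 (0.79 ± 0.401, adjusted p = 0.192) and rnu2 (1.26 ± 0.492, adjusted p = 0.0847) did not pass at about 10 CPM. Of the 22 tested rows, 2 rose and 1 fell, which is no more than over all genes tested, where 9.92% rose and 11.4% fell. The 2 were rnu4atacb and a row of U5 (ENSDARG00000081029), both picked after their values were seen. rnu4atacb stood at 10, 10.63, 2.014 and 10.85 CPM in mutants and 3.806, 1.24, 1.794 and 0.482 CPM in siblings, with overlap (2.2 ± 0.685, adjusted p = 0.0331). The U5 row stood at 7.268, 4.796, 3.068 and 3.205 CPM in mutants and at no more than 0.3213 CPM in siblings (4.45 ± 0.951, adjusted p = 0.00377). Without overlap but not passing, mutants stood higher in a U4 row (ENSDARG00000112858, 2.08 ± 0.958) and a U5 row (ENSDARG00000085332, 2.57 ± 1.41). The same held for U1 rows ENSDARG00000081574 (1.8 ± 0.758) and ENSDARG00000109433 (3.64 ± 1.37). U5 rows ENSDARG00000081029 and ENSDARG00000085332 and U1 row ENSDARG00000109433 passed the filter on mutant counts alone. Their siblings reached at most 0.3213, 0.6679 and 0.4006 CPM, so their lack of overlap follows from the filter. Of all genes tested, 12.6% were higher without overlap, which is no measure for such rows. The tested U1, U2 and U5 rows with negative values (-0.04, -0.55, -0.54 and -0.55) overlapped. These rows, picked after their values were seen, averaged 7.421 CPM or less.

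**Figure D4:**
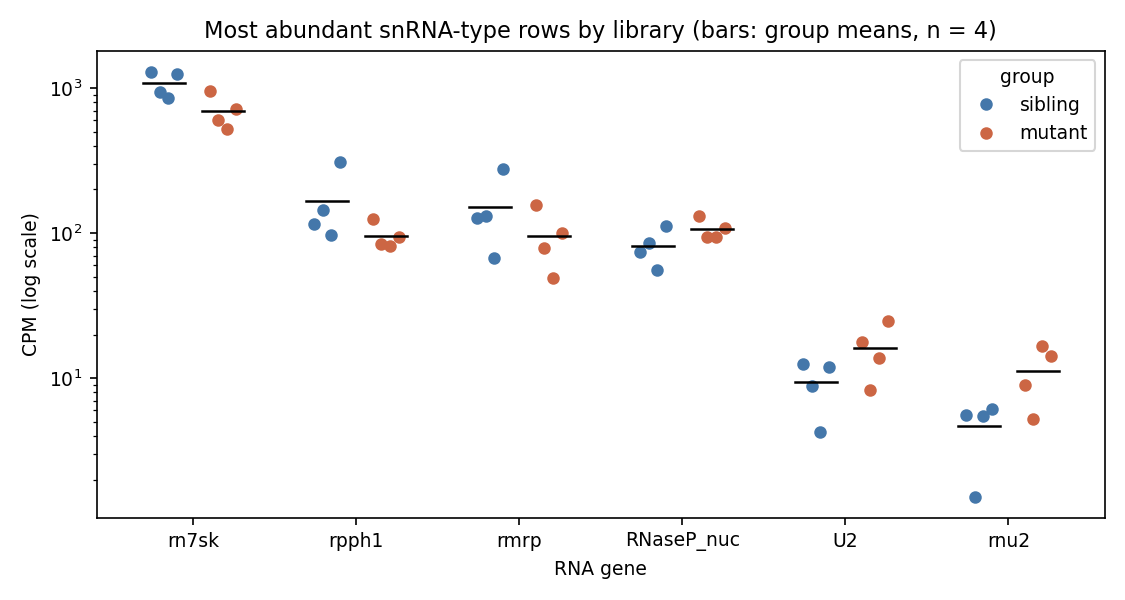
Level in CPM (log axis) of the 6 most abundant snRNA-type rows in 4 sibling and 4 mutant libraries, with bars for group means. rn7sk is lower on average in mutants with overlap of mutant replicate 1, and the groups overlap in the other 5 rows.

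The genes beside the 8 members on the chromosome were looked up by their order in the GRCz12tu RefSeq table, which is another assembly than that of the counts, so no positions are given. On each side the nearest protein-coding gene with exactly 1 matching row was taken, which gave 16 neighbours, 9 of them directly adjacent. Of the 11 that were tested, 3 rose and 8 did not pass, where 9.92% of all genes tested rose. CARD9, directly beside snapc4, held 209, 337, 427 and 368 counts in mutants and 82, 93, 124 and 141 in siblings. It rose from 9.632 ± 1.38 to 28.62 ± 10.1 CPM (SD, n = 4; log2 fold change 1.57 ± 0.297, adjusted p = 0.0016, edgeR), while ENTR1, on the other side of snapc4, stood at 8.573 ± 2.24 and 11.75 ± 1.91 CPM (0.46 ± 0.326, adjusted p = 0.379). DNAH5, near ice1 (1.15 ± 0.357, adjusted p = 0.033), and CHST10, beside snapc3 (0.87 ± 0.281, adjusted p = 0.0387), rose as well, but each call was lost under 8 of the 16 alternatives, among them the replicate block.

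The directly adjacent genes ccr8.1, beside ice1, and prlhr2b, beside brf2, were too low to be tested. ccr8.1 held 11, 16, 50 and 9 counts in mutants and 0, 0, 9 and 0 in siblings. prlhr2b held 19, 4, 6 and 16 counts in mutants and 0, 0, 1 and 0 in siblings. Every mutant library held more prlhr2b counts than any sibling library, while for ccr8.1 mutant replicate 4 and sibling replicate 3 held the same number. rab11fip1b, on the other side of brf2, was at 6.079 ± 5.07 CPM among mutants and 9.099 ± 1.75 CPM among siblings (SD, n = 4; -0.58 ± 0.531, adjusted p = 0.514, edgeR). Whether the counting used strand is not given in the sources used here, so reads of a gene and of an overlapping transcript on the other strand may not be told apart.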

How the data were processed

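The authors deposited raw counts per Ensembl gene for 8 libraries, whole numbers with no normalisation as far as the values show. Per the submitters' processing notes, Trim Galore, STAR 2.4.2a, Picard, Cufflinks 2.2.1 and the build GRCz10 were used, while no source used here names the counting tool or its strand setting. Per the labels' protocols, a SMARTer Stranded kit was used after depletion of ribosomal RNA, so unspliced RNA may be among the counts. Counts were fitted with edgeR 4.0.16 in R 4.3.3 (filterByExpr with a smallest count of 10 and a smallest total of 15, TMM, glmQLFit with robust=TRUE, glmQLFTest, group as the only factor), and 18289 of 31901 genes were tested. The Benjamini-Hochberg adjustment ran over all tested genes, and an adjusted p under 0.05 counted as passing. The SE is the log2 fold change divided by the square root of F. Profiles used log2 CPM with a prior count of 2. Symbols came from a table of Ensembl names, and list symbols with no row were tried without their paralogue letter. The members and lists were chosen with earlier results of these data known.

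Named genes were the members, the up to 4 partners with the smallest p in each list, the 6 most abundant snRNA-type rows, the 5 nearest profiles of snapc4, ice1 and brf2, and sf3b1, kdrl and cdh5. Other genes are said to be picked later, and the neighbours were chosen by position once the table was at hand. Replicates of a group differed beyond sampling noise (chi-square per degree of freedom 14.73 to 51.13), so each library counts as 1 sample. The fit was tested on simulated data. Alternatives were other normalisations, other filters, DESeq2 1.42.0, a replicate block, and omission of libraries.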

Additional observations from a re-analysis of the deposited data

Results flagged for a closer look

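In 3 of 52 sets of 4 libraries examined, 1 library lay far from the others, where chance gives about 5%. All 3 were sibling replicate 2. It stood at 16.6 CPM of snapc5, at 24.9 CPM of GTF3A and at 15.36 CPM of METTL16, each the highest of the 4 siblings.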

How the results depend on the processing

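No setting turned the direction of a member: all 128 values of the 8 members under 16 alternatives moved by less than the spread between replicates. Their ranges were 3.33 to 3.46 for snapc4, 3.2 to 3.44 for ice1, 3.38 to 4.12 for brf2, 1.14 to 1.45 for snapc1b, 0.92 to 1.18 for snapc3, 0.91 to 1.4 for ice2, 0.43 to 1.01 for snapc2 and -0.49 to -0.01 for snapc5 (log2 fold change). On leaving out single libraries, the median over the members was 1.15 to 1.42. Across genes, same-numbered libraries showed no shared deviation (correlations -0.04 to 0.05, and 1 of 4 mutants correlated best with its own number). Such a summary cannot show whether some genes share a replicate factor. kdrl, FLT4 and ERG, looked at after their values were seen, increased from replicate 1 to replicate 4 in both groups. The other endothelial markers did not do so at every step in both. Yet for cdh5, TIE1, tek, FLI1, flt1, clec14a and ESAM, replicates 3 and 4 lay above the other replicates in both groups. EGFL7 and TAL1 did not show this. rn7sk had the same order of replicate numbers in both groups. snapc4 did not follow the same order in the groups. With the replicate block, 3782 genes passed in place of 3902, and 27 partner rows in place of 28. Of 448 values of 28 other named genes under the alternatives, 28 no longer passed and 3 newly passed. Those of rpph1 (DESeq2 and without sibling replicate 3) and rnu2 (replicate block) were the ones that newly passed. Upper-quartile normalisation shifted the median of all genes by 0.067 and gave 21 partners higher and 6 lower. The difference in the share of snRNA-type rows passed on omission of no single library (exact permutation p = 0.0571 to 0.257, differences of -0.0567 to -0.0265 percentage points). Depth limits SNAPC1, the U6 rows and the low neighbours.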
